A study of Mus musculus with 10 samples.

Results

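MHC class I and antigen processing genes are described here through 9 members, which are the heavy chain genes HLA-B, HLA-C, HLA-E, HLA-F and HLA-G, the light chain gene B2M, the peptide transporter genes TAP1 and TAP2, and the tapasin gene TAPBP. A probe set was taken as a member if the platform's annotation gave it exactly 1 gene symbol and that symbol was among the 9. This left 36 probe sets of the 61359 on the array, and 9 of the 19556 genes with a probe set of 1 symbol. All 9 genes passed the filter on low values and were among the 17169 genes tested, while 34 of the 36 probe sets passed it when every probe set was tested.

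Class I molecules are carried by nearly all nucleated cells and present short peptides from inside the cell to CD8 T cells. The proteasome cuts cytosolic proteins into peptides, the TAP transporter moves the peptides into the endoplasmic reticulum, and tapasin helps to load them onto a heavy chain paired with beta-2 microglobulin, the product of B2M. Interferons raise the transcription of these genes, partly through NLRC5, a transactivator of class I promoters, and tumors often carry less class I than the tissue they arose in.

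The study measured human breast cancer cells that had been grown as xenografts in 20 week old female nu/nu mice, a strain that lacks mature T cells. Axillary lymph node metastases with the estrogen pellet in place (E) came from mice 6, 11 and 14, and lymph node metastases 1 week after the pellet had been taken out (EWD) from mice 9, 10 and 19. Primary mammary gland tumors with the pellet came from mice 11 and 14, and primary tumors after withdrawal from mice 10 and 19. Frozen sections were sampled by laser capture, a method for lifting chosen cells off a slide, and the RNA of those cells was amplified by PCR. All mice had thus carried an estrogen pellet, so the withdrawn groups are mice 1 week after its removal and not mice that never had one. No cell line is named in the labels, whose organism field gives the mouse although the probe sets are human. The replicate was the mouse, and 4 of the 6 mice gave both sites.

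Values are the authors' deposited log2 signals, 1 per probe set and array. The arrays did not share 1 distribution. The 99th percentile of log2 values was 9.424 and 10.02 on the estrogen primary tumor arrays of mice 11 and 14, against 11.35 to 11.67 on the other 8 arrays, while the medians of all 10 lay between 2.704 and 2.832. High values were therefore compressed on both arrays of 1 group, so each comparison is given on the deposited scale and again after quantile normalization, which forces the arrays onto 1 distribution. A gene is represented by its brightest probe set, and a gene was called when its adjusted p in limma (Benjamini-Hochberg over all 17169 genes) was below 0.05. In bulk RNA of this kind, fewer cells that express a gene and less of its RNA per cell cannot be told apart.

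The members spanned most of the range of the arrays. Averaged over the 10 arrays, the log2 level was 12.12 for B2M, 11.14 for HLA-F, 11.03 for HLA-C, 10.91 for TAP1 and 10.11 for TAPBP. It was 7.57 for HLA-E, 6.37 for HLA-B, 5.46 for TAP2 and 4.64 for HLA-G. These are signals of different probe sets, so their order is not an order of RNA amounts. HLA-G, whose protein is best known from the placenta, had 4 probe sets, none of which passed 5.35 on any array. The arrays differed most from each other in TAP1, with a range of 3.58 log2 units, and in HLA-F, with 3.4, and least in HLA-G, with 1.31.

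**Figure D1:**
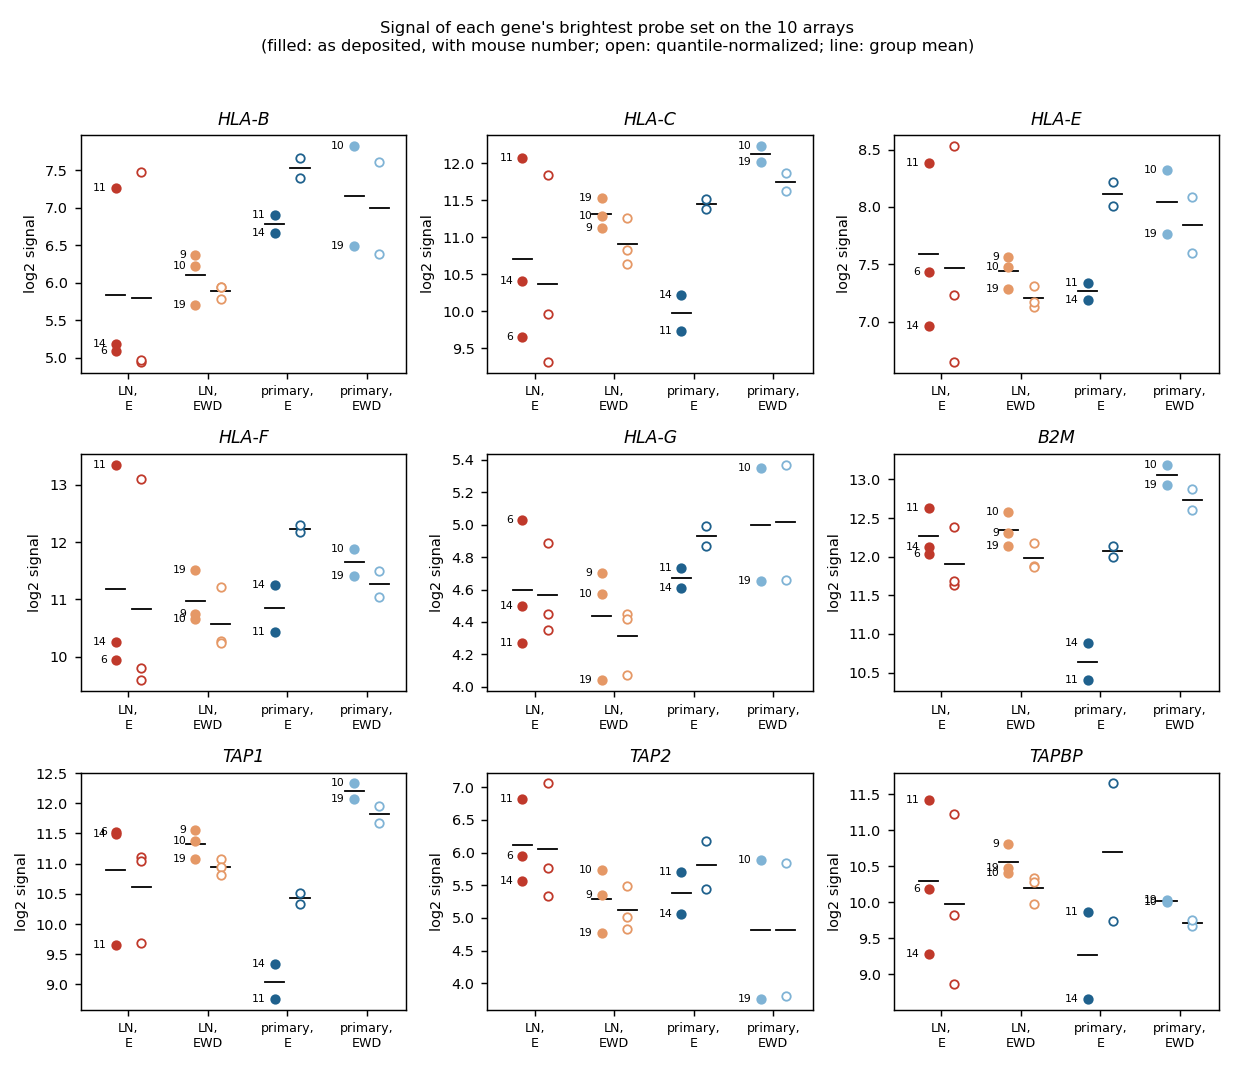
Log2 signal (vertical axis) of the brightest probe set of each of the 9 genes on each of the 10 arrays, grouped on the horizontal axis by site (LN is lymph node) and pellet state; filled points are deposited values with their mouse numbers, open points are quantile-normalized values, and lines are group means. On the deposited scale the estrogen primary tumors are the lowest group for B2M (10.40 and 10.88) and TAP1 (8.76 and 9.33), and after quantile normalization they no longer are for B2M.

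In primary tumors, B2M and TAP1 were lower with estrogen than after withdrawal on the deposited scale, by 2.42 and 3.16 log2 units, and none of the other 7 members passed the test. After quantile normalization no member passed it, and the differences of B2M and TAP1 kept their sign at a size of 0.66 and 1.41. The comparison asks how the tumor cells at the primary site responded to the pellet. It rests on 2 arrays against 2.

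The light chain gene B2M (probe set g4757825_3p_a_at) had deposited log2 signals of 10.40 and 10.88 in estrogen primary tumors, against 13.19 and 12.93 in withdrawn primary tumors. The estrogen arrays were both more than 2 log2 units below the withdrawn ones. B2M averaged 10.64 ± 0.34 in estrogen primary tumors and 13.06 ± 0.18 in withdrawn ones (SD, n = 2 each), a difference of -2.42 with a standard error (SE) of 0.3, a 95% interval of -3.09 to -1.74 and an adjusted p of 0.00944 in limma. After quantile normalization the signals were 12.14 and 12 with estrogen, against 12.87 and 12.61 after withdrawal. The groups still did not overlap, and the difference was -0.66 (SE 0.3, adjusted p = 0.247 in limma). The deposited call was lost without the estrogen array of mouse 11 (-2.16, adjusted p = 0.0696) and without the withdrawn array of mouse 19 (-2.57, adjusted p = 0.0592). A second B2M probe set, Hs.75415.2.S1_3p_a_at, gave 7.46 and 6.14 with estrogen against 10.48 and 9.73 after withdrawal. Tested among all probe sets, its difference was -3.31 (SE 0.63, adjusted p = 0.0338) on the deposited scale and -2.22 (adjusted p = 0.117) after quantile normalization.

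TAP1 codes for 1 of the 2 subunits of the peptide transporter. Its brightest probe set, Hs.158164.1.S1_3p_s_at, had deposited signals of 8.76 and 9.33 in estrogen primary tumors, against 12.33 and 12.07 in withdrawn ones. No estrogen array came within 2 log2 units of a withdrawn one. The difference was -3.16 (SE 0.59, 95% interval -4.5 to -1.83, adjusted p = 0.0206 in limma). The call was lost when any 1 of the 4 primary tumor arrays was left out, with differences of -3.34 to -2.97 and adjusted p-values of 0.0706 to 0.112. Quantile normalization brought the signals to 10.33 and 10.52 with estrogen, against 11.96 and 11.68 after withdrawal, still without overlap, and the difference to -1.41 (SE 0.44, adjusted p = 0.126). The other TAP1 probe set, g9665247_3p_a_at, had 7.75 and 7.52 with estrogen against 9.12 and 9.30 after withdrawal. Its difference of -1.57 did not pass the test among all probe sets (adjusted p = 0.195), and after quantile normalization it was -0.37.

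The classical heavy chain gene HLA-C (g13325360_3p_x_at) had deposited signals of 9.74 and 10.22 with estrogen, against 12.23 and 12.01 after withdrawal, in primary tumors. All estrogen values lay below all withdrawn ones, but the difference of -2.12 (SE 0.64) missed the threshold, with an adjusted p of 0.0774. Without the estrogen lymph node array of mouse 11, which enters the shared estimate of the spread, it was -2.14 and passed (adjusted p = 0.00339), in a fit that called 18.5% of all genes lower. After quantile normalization it was -0.28 (adjusted p = 0.844). The other HLA-C probe sets did not all go this way on the deposited scale. Primary tumors averaged 6.72 with estrogen against 6.52 after withdrawal in g1575443_3p_at, and 4.25 against 4.12 in g1575443_3p_x_at. The dimmest HLA-C probe set was also higher with estrogen, at 4.47 against 3.58. The second brightest was lower with estrogen, at 7.54 against 8.34. HLA-B, the other classical heavy chain measured, had 6.90 and 6.67 with estrogen against 7.82 and 6.49 after withdrawal, and these groups overlapped.

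Of the non-classical heavy chains, HLA-E, whose product is seen by natural killer cell receptors, differed by -0.77 (adjusted p = 0.3), HLA-F by -0.78 (adjusted p = 0.67) and HLA-G by -0.34 (adjusted p = 0.611) on the deposited scale. After quantile normalization HLA-E stood at 0.28 and HLA-F at 0.99, so the sign of both depended on the scale. TAPBP, the tapasin gene, went the same way, with -0.75 deposited and 1.0 after quantile normalization. TAP2, the partner of TAP1 in the transporter, was the single member with a positive deposited difference, at 0.57 (adjusted p = 0.658).

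Counted together, 2 of the 9 members were called lower and 0 higher in estrogen primary tumors on the deposited scale, where 6.94% of all genes were called lower and 0.879% higher. The groups did not overlap, with estrogen the lower, for 6 members (HLA-C, HLA-E, HLA-F, B2M, TAP1 and TAPBP), against 38.3% of all genes. The median of the 9 differences was -0.77, against -0.1 over all genes tested. After quantile normalization 0 of 9 were called, against 1.34% of all genes, and the median was 0.28, against 0.06 over all genes. Among the 36 probe sets, 3 were called lower on the deposited scale (2 of B2M and 1 of TAP1), against 2.75% of the probe sets tested.

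The size of the deposited differences followed the brightness of the genes. Over all genes with a mean level from 10 to 12, the median difference in primary tumors was -1.92, with 10th and 90th percentiles of -2.75 and -0.8. It was -1.78 for genes of 12 and over, -0.77 from 6 to 8 and 0.11 below 4. Within its own level class, 2.65% of genes had a lower difference than TAP1 and 14% a lower one than B2M, while 90.1% had a lower one than HLA-F and 90.5% a lower one than TAPBP. A further measure moved with the groups. The mean of the 18 hybridization control probe sets was 9.618 and 10.55 on the estrogen primary tumor arrays, against 12.47 and 12.33 on the withdrawn ones, so that this level and the pellet state cannot be told apart in primary tumors. Leukocyte markers were higher with estrogen in 22 of 25 genes on both scales, with medians of 0.23 deposited and 0.29 after quantile normalization, against -0.1 and 0.06 over all genes. Their mean deposited level was 3.27 and 3.48 in estrogen primary tumors, against 3.14 and 3.11 in withdrawn ones. MHC class II genes were higher in 9 of 11 on both scales, with medians of 0.12 and 0.38. Over all genes with a mean level below 4 the medians were 0.11 deposited and 0.07 after quantile normalization. The deposited class II median was thus that of dim genes at large, and the leukocyte median was slightly above it. The part of these markers in the differences of B2M and TAP1 was not tested.

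**Figure D2:**
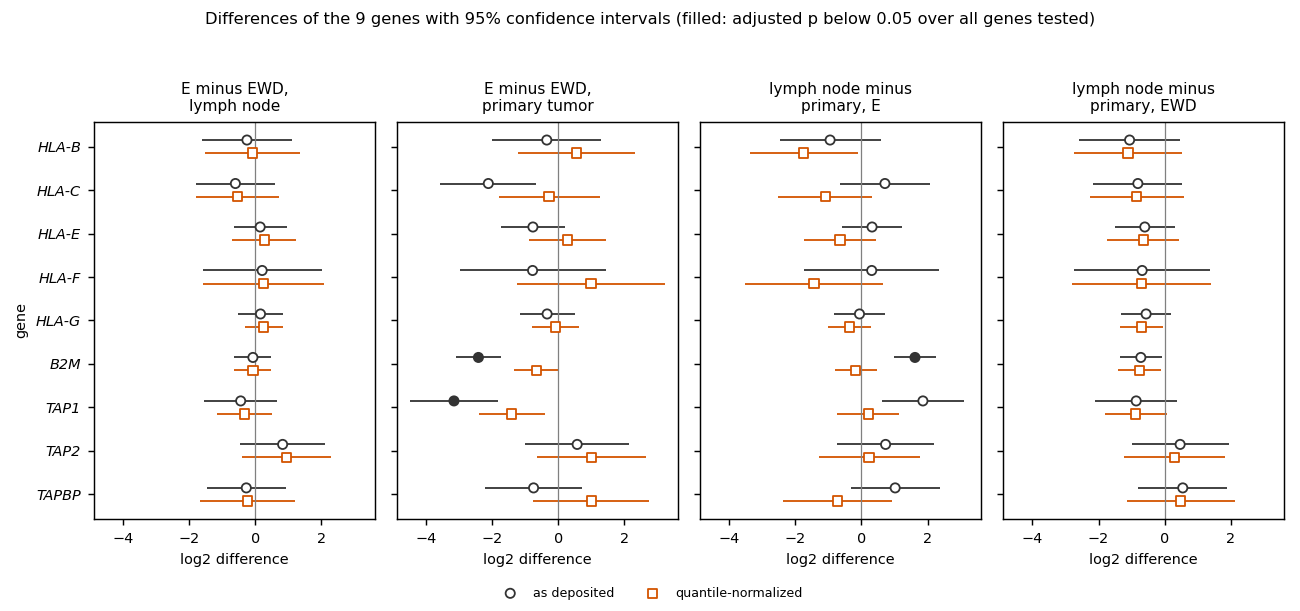
Difference in log2 signal with its 95% interval (horizontal axis) for each of the 9 genes (vertical axis), with 1 panel for each of 4 comparisons; circles are deposited values, squares are quantile-normalized values, and filled symbols passed the threshold on adjusted p. B2M at -2.42 and TAP1 at -3.16 in primary tumors, and B2M at 1.62 between the sites with estrogen, are the filled circles.

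In lymph node metastases none of the 9 members differed between estrogen and withdrawal past the threshold on either scale. B2M was nearly level, at 12.04, 12.63 and 12.13 with estrogen, against 12.31, 12.58 and 12.14 after withdrawal. TAP1 had 11.52, 9.65 and 11.49 with estrogen, against 11.55, 11.38 and 11.07 after withdrawal. The estrogen array of mouse 11 was the low value, and the other 5 arrays lay within a range of less than 1 log2 unit.

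Deposited differences of the 9 members in lymph nodes ran between -0.6 for HLA-C and 0.83 for TAP2, with adjusted p-values of 0.927 to 0.985 in limma. After quantile normalization they ran between -0.54 and 0.94, with adjusted p-values of 0.883 to 0.987. The difference of B2M was -0.07 on both scales, with 95% intervals of -0.63 to 0.48 deposited and -0.63 to 0.49 after quantile normalization. No gene of the 17169 was called in this comparison on either scale, with 5.84% at an unadjusted p below 0.05 on the deposited scale and 6.49% after quantile normalization, so the count of 0 of 9 is also the background.

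The estrogen lymph node array of mouse 11 set the spread of several members. HLA-F had 9.95, 13.35 and 10.25 in the estrogen lymph nodes of mice 6, 11 and 14, against 10.74, 10.66 and 11.51 after withdrawal, so mouse 11 lay above all other arrays of the study. HLA-B had 5.09, 7.26 and 5.18 with estrogen, against 6.37, 6.23 and 5.70 after withdrawal, and HLA-C had 9.65, 12.07 and 10.41 against 11.13, 11.29 and 11.53. In both genes mouse 11 was above every withdrawn array and the other estrogen arrays were below them. The median of the 9 lymph node differences was -0.07 with all arrays and -0.26 without that array on the deposited scale, and -0.32 without it after quantile normalization.

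On the 4 lymph node arrays with low hybridization control means (2 with estrogen, 2 withdrawn) the median deposited difference of the members was -0.36, against 0 over all genes. The lymph node arrays with high control means, mouse 11 with estrogen and mouse 19 withdrawn, are 1 of each group. Their median deposited difference had the opposite sign, at 0.95, against -0.08 over all genes. It allows no comparison beyond that of mouse 11 itself. The part of the control level in the lymph node differences was not tested.

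Averaged over both sites, B2M was lower with estrogen than after withdrawal by 1.24 log2 units and TAP1 by 1.8 on the deposited scale. The limma adjusted p-values were 0.0136 for B2M and 0.0291 for TAP1, and HLA-C, with -1.36, missed the threshold at 0.0739. These 2 of 9 members stood against 7.04% of all genes called lower. Without the estrogen primary tumor of mouse 11 neither was called (-1.11, adjusted p = 0.091 for B2M and -1.71, adjusted p = 0.134 for TAP1). TAP1 also lost the call without any 1 of 5 further arrays, with adjusted p-values of 0.071 to 0.103, and HLA-C passed without the lymph node of mouse 11 (-1.71, adjusted p = 0.0052), where 9.59% of all genes were called lower. The average includes the primary tumor comparison, so it is not a separate finding. After quantile normalization no member was called, against 3.72% of all genes, with -0.37 for B2M (adjusted p = 0.268) and -0.87 for TAP1 (adjusted p = 0.11).

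With the pellet in place, B2M was higher in lymph node metastases than in primary tumors on the deposited scale, and it was the single member called. Its signals of 12.04, 12.63 and 12.13 in estrogen lymph nodes all lay above the 10.40 and 10.88 of estrogen primary tumors. B2M averaged 12.27 ± 0.32 in lymph nodes (SD, n = 3) and 10.64 ± 0.34 in primary tumors (SD, n = 2), a difference of 1.62 (SE 0.28, 95% interval 0.99 to 2.25, adjusted p = 0.0115 in limma). After quantile normalization the groups overlapped, at 11.63, 12.39 and 11.69 in lymph nodes against 12.14 and 12 in primary tumors, and the difference was -0.17 (adjusted p = 0.866). This call was lost without the estrogen primary tumor of mouse 11 (1.37, adjusted p = 0.0819) and with mouse as a fixed block (1.74, adjusted p = 0.162). The median deposited difference of all genes with a mean level of 12 and over was 1.82.

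TAP1 had 11.52, 9.65 and 11.49 in estrogen lymph nodes, against 8.76 and 9.33 in estrogen primary tumors. The groups did not overlap, although mouse 11 came close, and the difference of 1.86 missed the threshold (adjusted p = 0.0752). After quantile normalization it was 0.21. The heavy chains had smaller deposited differences, of 0.71 for HLA-C, 0.32 for HLA-E and 0.31 for HLA-F, none of them called, and HLA-B stood at -0.95 (adjusted p = 0.455). Without the lymph node array of mouse 11, deposited, TAP1 at 2.46 (adjusted p = 0.0029) and HLA-B at -1.64 (adjusted p = 0.0249) passed the test beside B2M, where 20.4% of all genes were called higher and 2.03% lower.

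Of the 9 members, 1 was thus called higher and 0 lower in estrogen lymph nodes, against 7.81% of all genes called higher and 0.949% called lower. Of the 7 members with a positive deposited difference, 5 turned negative after quantile normalization, where 7 of 9 were negative (47.6% of all genes were) and the median was -0.65, against 0.02 over all genes. Differences were then -1.75 for HLA-B (adjusted p = 0.379), -1.44 for HLA-F (adjusted p = 0.597), -1.1 for HLA-C (adjusted p = 0.54) and -0.65 for HLA-E. No member was called, and 0.46% of all genes were.

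The array of mouse 11 decided these heavy chain values. HLA-B, after quantile normalization, had 4.95, 7.47 and 4.97 in the estrogen lymph nodes of mice 6, 11 and 14, against 7.66 and 7.39 in estrogen primary tumors of mice 11 and 14. Mice 6 and 14 were more than 2 log2 units below the primary tumors and mouse 11 lay between those. HLA-C had 9.32, 11.84 and 9.96, against 11.52 and 11.38, and HLA-F had 9.59, 13.10 and 9.80, against 12.17 and 12.30. In both, mouse 11 exceeded the primary tumors and the other 2 lymph nodes were below them. Without that array, an alternative chosen after the data had been seen, the quantile-normalized differences were -2.56 for HLA-B (adjusted p = 0.0134 in limma), -1.81 for HLA-C (adjusted p = 0.0239) and -2.54 for HLA-F (adjusted p = 0.013). 1.58% of all genes were called lower in that fit, and its lymph node group held 2 arrays.

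After withdrawal, no member differed between lymph node and primary tumor past the threshold, and 7 of 9 had a negative deposited difference, as did 43.4% of all genes. B2M had 12.31, 12.58 and 12.14 in withdrawn lymph nodes, against 13.19 and 12.93 in withdrawn primary tumors, a difference of -0.72 with a 95% interval of -1.35 to -0.09 and an adjusted p of 0.433. HLA-B had 6.37, 6.23 and 5.70 against 7.82 and 6.49, a difference of -1.06. In both genes every lymph node lay below every primary tumor.

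Deposited differences of the other heavy chains were -0.81 for HLA-C, -0.6 for HLA-E, -0.68 for HLA-F and -0.56 for HLA-G, and TAP1 stood at -0.86. TAPBP, with 10.81, 10.41 and 10.47 against 10.01 and 10.03, and TAP2 had positive differences of 0.55 and 0.47. Lymph nodes lay below primary tumors with no overlap for 5 members (HLA-B, HLA-C, HLA-E, B2M and TAP1), against 10.2% of all genes, and above them for TAPBP, against 20.8%. After quantile normalization 6 members lay below (HLA-G joined the 5), against 13.8% of all genes, and the median of the 9 was -0.7, against 0.01 over all genes. Of the 36 probe sets, 16 lay below with no overlap on the deposited scale and 18 after quantile normalization, against 11.9% and 13% of all probe sets. No gene of the 17169 was called on either scale, with 10% at an unadjusted p below 0.05 deposited and 8.39% after quantile normalization.

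These withdrawn arrays had similar ranges, so the quantile values were close to the deposited ones. Hybridization controls were at 9.472, 10.13 and 12.31 on the lymph node arrays, against 12.47 and 12.33 on the primary tumor arrays. The arrays with high controls were the lymph node of mouse 19 and both primary tumors. Between them the median difference of the members was -0.76 deposited and -0.53 after quantile normalization, against 0.03 over all genes on both scales. HLA-B stood at -1.46 and -1.22. The lymph node side of this split held 1 array.

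Averaged over pellet states, the site difference called no member on either scale. On the deposited scale the largest were -1.0 for HLA-B (adjusted p = 0.249) and 0.79 for TAPBP (adjusted p = 0.308), and B2M stood at 0.45 (adjusted p = 0.208), against 8.15% of all genes called. Without the estrogen lymph node of mouse 11, HLA-B at -1.35 (adjusted p = 0.0157) and TAP1 at 0.79 (adjusted p = 0.0235) passed the test deposited, where 1.58% of all genes were called lower and 16.8% higher. After quantile normalization 8 of 9 were negative, where 48.7% of all genes were, and their median was -0.53, against 0.01 over all genes. HLA-B stood at -1.43 (adjusted p = 0.245), HLA-F at -1.07 (adjusted p = 0.504), HLA-C at -0.98 (adjusted p = 0.359) and HLA-E at -0.64, with 0.344% of all genes called. Without the estrogen lymph node array of mouse 11 the 4 genes were called, at -1.84 for HLA-B (adjusted p = 0.017), -1.32 for HLA-C (adjusted p = 0.0224), -0.91 for HLA-E (adjusted p = 0.0497) and -1.61 for HLA-F (adjusted p = 0.0212). 1.17% of all genes were called lower in that fit.

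Whether estrogen acted differently on the 2 sites was asked by the difference between the responses, lymph node minus primary tumor. All 9 members had a positive value on the deposited scale, where 40.1% of all genes were below 0, with a median of 0.92 against 0.15 over all genes, and none was called. This value also rose with brightness, with medians over all genes of 0.13 at mean levels from 4 to 6, 0.61 from 6 to 8 and 1.78 from 10 to 12. Within its level class, 97.6% of genes had a lower value than TAP1 and 91.5% a lower one than B2M. The share was 67.3% for HLA-G, 64.1% for HLA-E, 56.2% for TAP2, 34.5% for HLA-C, 25.8% for HLA-B, 12% for HLA-F and 4.6% for TAPBP. B2M stood at 2.34 (adjusted p = 0.137) and TAP1 at 2.72 (adjusted p = 0.226), where 0.0116% of all genes were called and 10.8% had an unadjusted p below 0.05. B2M passed without the estrogen lymph node of mouse 11 (2.16, adjusted p = 0.0186) and without the estrogen primary tumor of mouse 14 (2.64, adjusted p = 0.035), and TAP1 without the lymph node of mouse 11 (3.33, adjusted p = 0.0174). In the fit without that lymph node 8.4% of all genes were called higher. The share in the fit without the primary tumor of mouse 14 is not given here, so that B2M call has no background beside it. After quantile normalization B2M stood at 0.59 (adjusted p = 0.856) and TAP1 at 1.08 (adjusted p = 0.824), and the median was -0.06. The estrogen primary tumors with their compressed range enter this value on the deposited scale.

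In the 4 mice that gave both sites, the pairs could be set side by side. After quantile normalization the lymph node was the lower for 8 of 9 genes in mouse 10 (withdrawn), 4 of 9 in mouse 11 (estrogen), 8 of 9 in mouse 14 (estrogen) and 6 of 9 in mouse 19 (withdrawn). The median differences were -0.96, 0.26, -0.88 and -0.38 in the same order of mice. Among the 36 probe sets the lymph node was the lower for 27, 16, 28 and 24, against 49.9%, 48.9%, 51.2% and 47.6% of all probe sets. Mouse 11 was the exception of the 4 on that scale. On the deposited scale the lymph node was the lower for 8, 1, 4 and 6 of 9 genes in mice 10, 11, 14 and 19. The median differences were then -0.84, 1.12, 0.2 and -0.48, so mouse 14 also had a positive median. Among the 36 probe sets 28, 12, 21 and 24 were lower, against 49.7%, 44.4%, 52.8% and 44.8% of all probe sets.

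HLA-B and HLA-G were the members whose lymph node value was the lower in all 4 mice after quantile normalization, where 6.52% of all genes were lower in all 4. For HLA-B the differences were -1.67, -0.19, -2.41 and -0.61 in mice 10, 11, 14 and 19, and mouse 11 had the smallest. HLA-G, a dim probe set, gave -0.96, -0.54, -0.52 and -0.59. HLA-C and HLA-E were lower in 3 of 4 mice, with mouse 11 as the exception, at 0.33 and 0.31. HLA-F was lower in mice 10 and 14, at -1.25 and -2.5, and higher in mice 11 and 19, at 0.93 and 0.18. On the deposited scale HLA-G alone of the 9 was lower in all 4 mice, against 4.01% of all genes, and TAPBP was higher in all 4, against 16.6%.

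**Figure D3:**
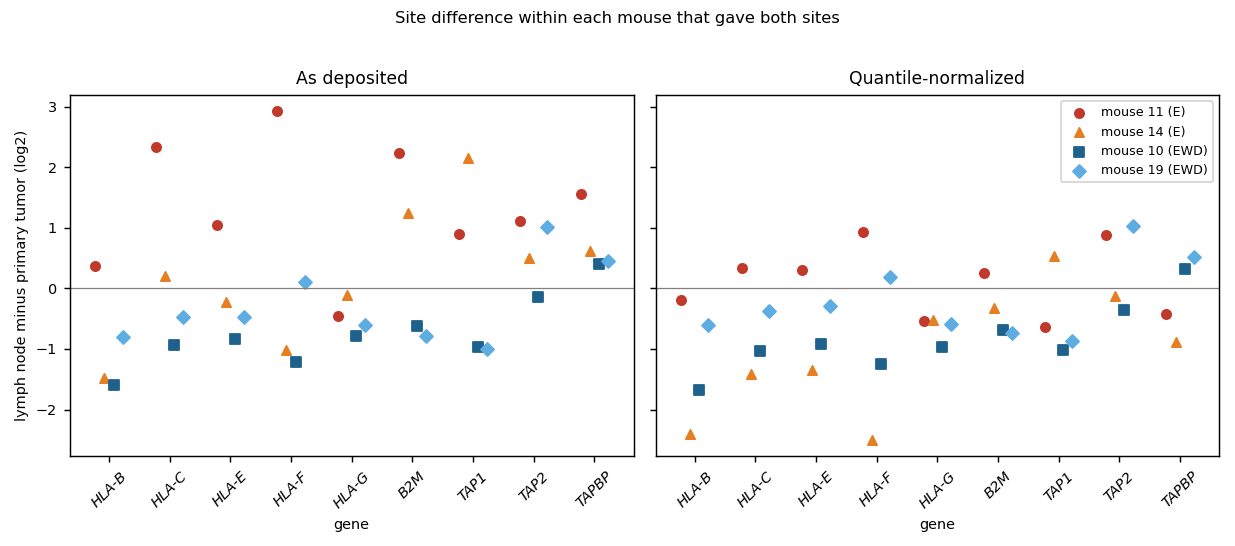
Lymph node minus primary tumor in log2 signal (vertical axis) for each of the 9 genes (horizontal axis) in the 4 mice that gave both sites, 1 symbol per mouse, on the deposited scale in the left panel and after quantile normalization in the right one. In the right panel HLA-B is below 0 in all 4 mice, HLA-C is above 0 in mouse 11 alone, and HLA-F is above 0 in mice 11 and 19.

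The other probe sets of a gene did not always follow the brightest one. For HLA-F, g9665231_3p_a_at tracked it with Pearson r = 0.98 over the 10 arrays, and mouse 11 was again the highest, at 12.66. A dimmer pair gave another picture. Hs.110309.2.S1_3p_at had 3.13, 3.94 and 3.37 in estrogen lymph nodes, 4.97, 4.15 and 2.72 in withdrawn lymph nodes, 5.62 and 4.66 in estrogen primary tumors, and 6.90 and 6.08 in withdrawn primary tumors. Every primary tumor lay above every lymph node of the same pellet state. Its average site difference was -2.1 (adjusted p = 0.0421 over the probe sets tested) and that of Hs.110309.2.S1_3p_x_at was -1.55 (adjusted p = 0.0421), where 0.424% of probe sets were called lower. After quantile normalization the values were -2.29 (adjusted p = 0.0831) and -1.74 (adjusted p = 0.0895).

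TAP2 showed a similar split between its 4 probe sets. The brightest, g188505_3p_a_at, had 5.95, 6.82 and 5.57 in estrogen lymph nodes, 5.35, 5.74 and 4.77 in withdrawn lymph nodes, 5.71 and 5.06 in estrogen primary tumors and 5.88 and 3.76 in withdrawn primary tumors. The groups overlapped in each comparison, and the withdrawn primary tumor of mouse 19 was the lowest array. Hs.8208.0.A1_3p_at had 4.07, 3.88 and 4.64 in estrogen lymph nodes and 5.98 and 5.38 in estrogen primary tumors. Every lymph node lay below both primary tumors, and the difference was -1.48 (SE 0.3, adjusted p = 0.0302) on the deposited scale and -2.02 (SE 0.27, adjusted p = 0.0219) after quantile normalization. At 0.672% and 0.313% of probe sets called lower, this was the single probe set of the 36 called on both scales in any comparison. Its r with the brightest TAP2 probe set was -0.23, and which TAP2 transcripts each reads was not analysed here.

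Among the heavy chains, 16 of the 36 probe sets carry the suffix x_at, by which the array maker marks probes that may also bind related transcripts. HLA genes are close in sequence, so signal may be shared between them. The probe sets of HLA-E tracked the brightest with r of 0.78 to 0.93 and those of HLA-B with 0.72 to 0.9. For HLA-C, g1575443_3p_at and g1575443_3p_x_at had r of 0.13 and 0.12 with the brightest one. For B2M the second probe set had r = 0.64, and for TAP1 r = 0.36. A further 4 probe sets named a member together with another symbol and were left out of the 36. Of these, 2 named for both HLA-C and HLA-B were higher in the withdrawn primary tumor of mouse 10, at 7.53 and 7.71, than on any other array.

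**Figure D4:**
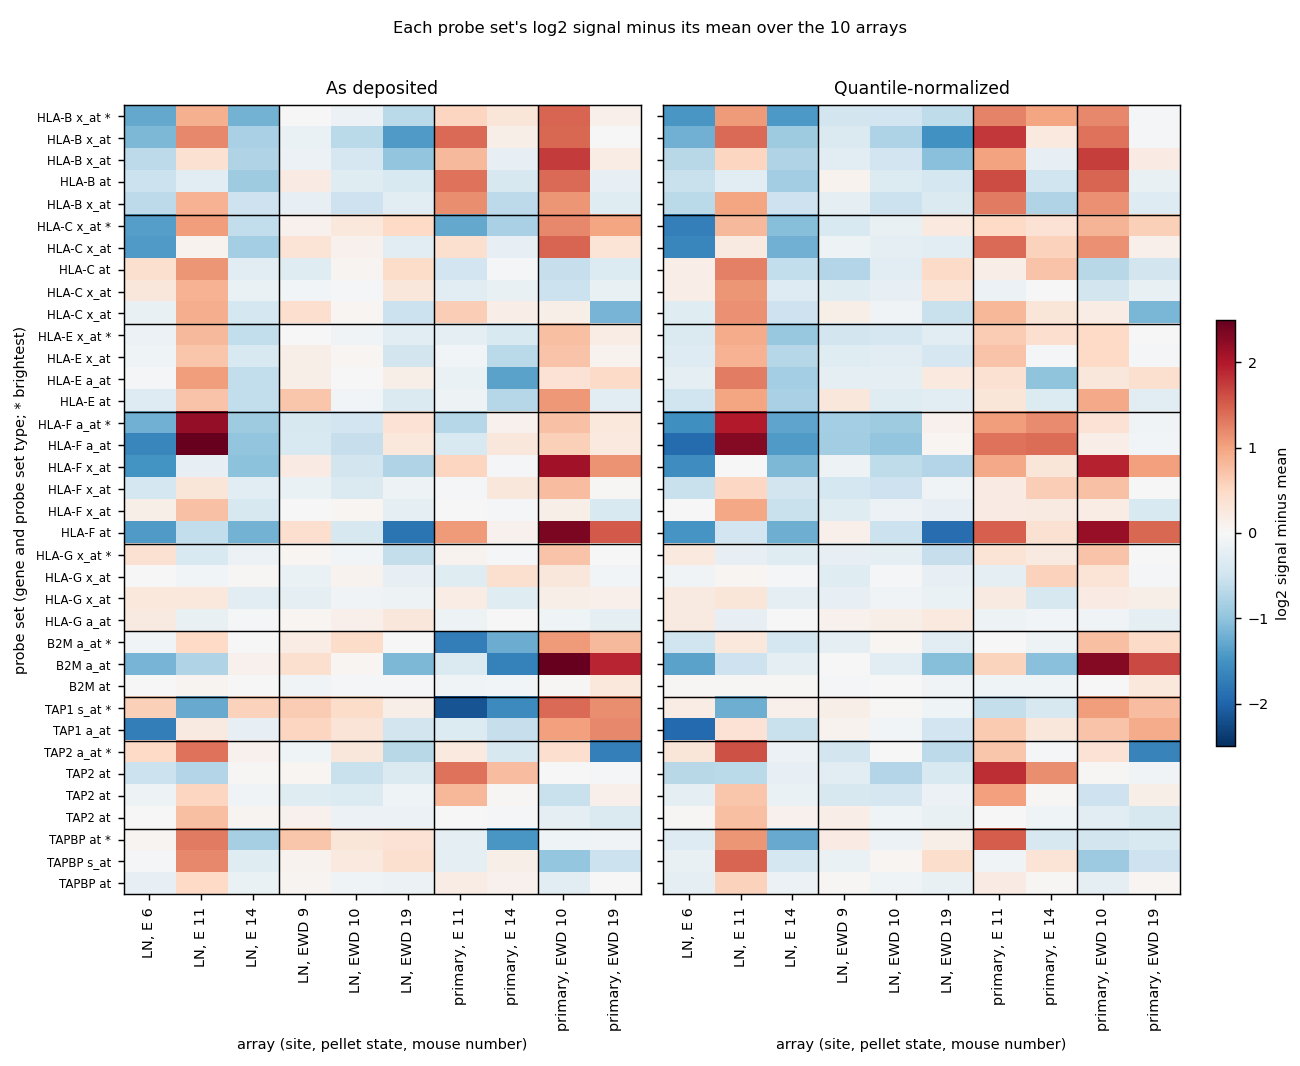
Log2 signal of the 36 probe sets (rows, grouped by gene, the brightest marked with a star) on the 10 arrays (columns, by site, pellet state and mouse number), coloured after subtraction of each probe set's mean over the arrays, deposited on the left and quantile-normalized on the right. The estrogen lymph node of mouse 11 stands out as high in both bright HLA-F probe sets (13.35 and 12.66 deposited), and the withdrawn primary tumors as high in both brighter B2M probe sets.

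Over the 10 arrays HLA-B, HLA-C, HLA-E and HLA-F correlated with each other, and HLA-G less so. After quantile normalization Pearson r was 0.93 between HLA-B and HLA-E, 0.92 between HLA-E and HLA-F and 0.89 between HLA-B and HLA-F, and 0.77 to 0.93 over all pairs of these 4. HLA-G had 0.53 with HLA-B but 0.2 with HLA-C and 0.21 with HLA-F. TAP1 had -0.57 with HLA-F, -0.14 with HLA-C and -0.66 with TAPBP, but 0.34 with HLA-G. Deposited, B2M had r = 0.81 with both HLA-C and TAP1, HLA-C had 0.44 with TAP1, and HLA-G had -0.11 with HLA-C and -0.28 with HLA-F. The arrays share mice and 1 array (mouse 11) is far from the others, and the heavy chain probe sets may bind each other's transcripts, so these are descriptions of 10 points. The 6 tested genes whose pattern was most like the mean of the z-scored members after quantile normalization were INPPL1 (r = 0.959), FCGR1A (0.957), HCAR3 (0.943), LAMP3 (0.938), IFIT3 (0.931) and IFI44L (0.921). For deposited values they were INPPL1 (0.944), GRM8 (0.93), ACTB (0.92), KLK14 (0.917), BPIFB4 (0.913) and SLC9B1 (0.911).

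NLRC5, the class I transactivator, was uneven across arrays. Its deposited signals were 3.06, 8.58 and 4.21 in estrogen lymph nodes, 4.58, 4.29 and 6.41 in withdrawn lymph nodes, 8.15 and 7.96 in estrogen primary tumors and 8.98 and 6.65 in withdrawn primary tumors. All 4 primary tumors lay above 5 of the 6 lymph nodes, and the sixth was the estrogen lymph node of mouse 11. The average site difference after quantile normalization was -3.27 and did not pass the test (adjusted p = 0.216). PSMB9, a catalytic subunit of the immunoproteasome whose gene lies next to TAP1, had 5.07, 8.24 and 5.36 in estrogen lymph nodes, 7.82, 7.54 and 6.90 in withdrawn lymph nodes, 8.68 and 8.10 in estrogen primary tumors and 9.57 and 7.84 in withdrawn primary tumors. Its average site difference was -2.4 after quantile normalization (adjusted p = 0.175). In each of the 4 mice with both sites, the lymph node was the lower for NLRC5, PSMB9 and PSMB8 on that scale, as for 6.52% of all genes. In mice 10, 11, 14 and 19 the differences were -2.02, -1.82, -3.94 and -0.74 for PSMB9. Those of NLRC5 were -4.55, -0.61, -4.8 and -0.07. Deposited, NLRC5 was higher in the lymph node of mouse 11, by 0.43. The lists holding these genes were mixed in the averaged site comparison after quantile normalization. Positive were 15 of 24 genes of class I transcription and interferon signalling (median 0.03) and 3 of 9 proteasome genes (median -0.14).

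Interferon-stimulated genes, of which 39 of 40 listed were tested, ran the same way as the heavy chains without passing the test. After quantile normalization 36 of 39 had a negative average site difference, as did 48.7% of all genes, with a median of -0.96 against 0.01 over all genes, and 0 were called, where 0.344% of all genes were. Deposited, 31 of 39 were negative, where 34.5% of all genes were, with a median of -0.35 against 0.16. The greatest were IFI44, at -3.64 (adjusted p = 0.123), and IFI44L, at -2.45 (adjusted p = 0.149), after quantile normalization. IFIT3, which binds viral RNA as part of a complex, had 3.09, 9.91 and 2.5 in estrogen lymph nodes, 5.29, 4.95 and 4.84 in withdrawn lymph nodes, 8.30 and 8.17 in estrogen primary tumors and 8.33 and 6.92 in withdrawn primary tumors. The mean level over the whole list was 5.10, 8.19 and 5.65 in the estrogen lymph nodes of mice 6, 11 and 14, 6.44 to 6.63 in withdrawn lymph nodes, 6.82 and 6.79 in estrogen primary tumors and 7.52 and 6.61 in withdrawn primary tumors on the deposited scale. The array of mouse 11 was thus the highest of all in the interferon list as in HLA-F, and the lymph nodes of mice 6 and 14 the lowest.

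**Figure D5:**
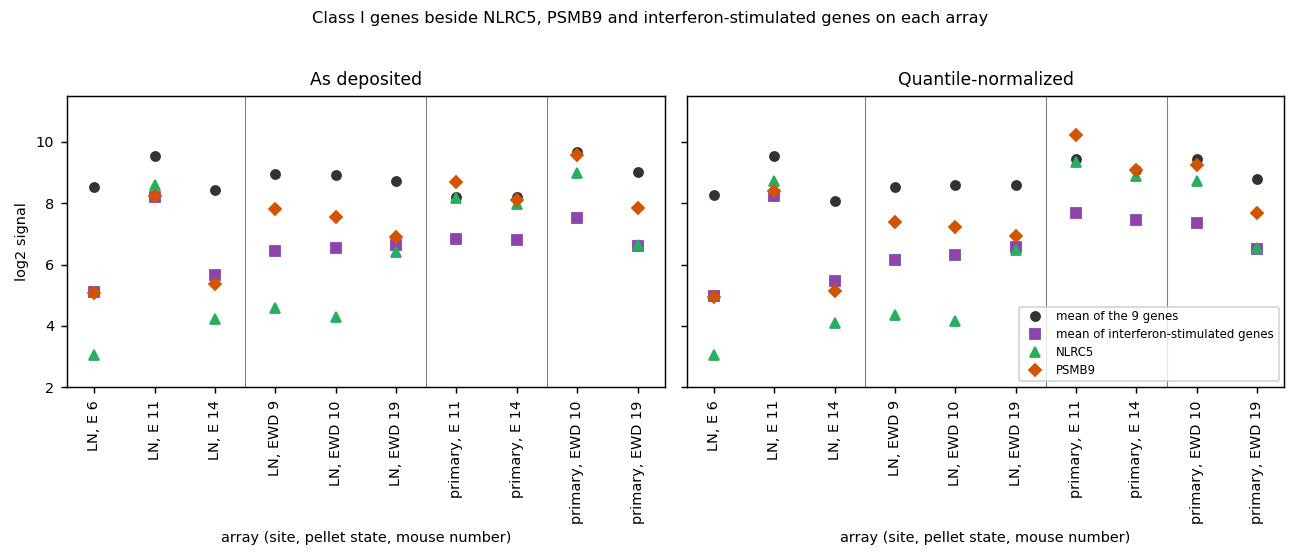
Log2 signal (vertical axis) on each of the 10 arrays (horizontal axis, by site, pellet state and mouse number), as the mean of the 9 members, the mean of the 40 interferon-stimulated genes, and the single genes NLRC5 and PSMB9, deposited on the left and quantile-normalized on the right. The estrogen lymph node of mouse 11, at 8.19 for the interferon list and 8.58 for NLRC5 on the deposited scale, lies above those of mice 6 (5.10 and 3.06) and 14 (5.65 and 4.21).

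GBP2, an interferon-induced GTPase, was the single gene of that list called in the averaged estrogen comparison, 1 of 39 where 7.04% of all genes were called lower deposited and 2.1% after quantile normalization. It had 7.02, 7.05 and 7.80 in estrogen lymph nodes against 9.04, 9.24 and 10.39 in withdrawn lymph nodes, and 6.49 and 5.64 in estrogen primary tumors against 7.83 and 8.69 in withdrawn primary tumors. Estrogen arrays lay below withdrawn ones at each site, and GBP2 fell with estrogen by 2.23 on average (adjusted p = 0.0142) on the deposited scale and by 1.72 (adjusted p = 0.0421) after quantile normalization. The list as a whole did not go that way: 24 of 39 genes were negative in the averaged estrogen comparison deposited, where 54.3% of all genes were, and 17 of 39 after quantile normalization, where 45% were.

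Among 24 tested genes of class I transcription and interferon signalling (27 listed), 3 were called lower and 1 higher with estrogen in the averaged comparison on the deposited scale, and 1 and 1 after quantile normalization. Of all genes, 7.04% were called lower and 0.979% higher deposited, and 2.1% and 1.62% after quantile normalization. IRF2, an interferon regulatory factor, had 5.12, 4.43 and 5.07 in estrogen lymph nodes against 5.98, 5.65 and 4.68 in withdrawn ones, and 4.17 and 3.00 in estrogen primary tumors against 5.55 and 6.62 in withdrawn ones. It fell by 1.53 (adjusted p = 0.0398) deposited and by 1.4 (adjusted p = 0.0486) after quantile normalization. IFNAR2, a subunit of the type I interferon receptor, had 5.91, 5.92 and 6.00 against 5.35, 5.51 and 5.55 in lymph nodes and 5.81 and 5.58 against 4.48 and 5.07 in primary tumors. It rose by 0.7 (adjusted p = 0.0383) and 0.99 (adjusted p = 0.0362) on the 2 scales, and its groups overlapped at neither site. RFX5, a promoter-binding factor of class I and class II genes, fell by 1.18 (adjusted p = 0.0481) and the kinase JAK1 by 1.59 (adjusted p = 0.0425) on the deposited scale alone. In primary tumors alone IRF2 and IFNGR1, the ligand-binding chain of the interferon gamma receptor, were called lower, deposited. These are 2 of 24 where 6.94% of all genes were called lower, so the count is near the background. By site, NFYC, a subunit of the NF-Y promoter factor, was the gene called, higher in lymph nodes by 1.84 (adjusted p = 0.0074) deposited and 1.54 (adjusted p = 0.0435) after quantile normalization, 1 of 24 where 7.51% and 0.128% of all genes were called higher.

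Of the proteasome list, 9 of 10 genes were tested. In estrogen primary tumors 4 were called lower on the deposited scale, against 6.94% of all genes, and none of the 4 is an inducible catalytic subunit. The list median was -1.69, while all genes with a mean level from 8 to 10 had a median of -1.31 and those from 10 to 12 of -1.92. They were the activator subunits PSME1 at -1.8 (adjusted p = 0.0178) and PSME2 at -1.97 (adjusted p = 0.0163), and the constitutive subunits PSMB5 and PSMB7 at -1.76 and -1.69. Between the sites with estrogen, these 4 and PSMB6 were called higher in lymph nodes, by 1.45 to 2.19, against 7.81% of all genes. After quantile normalization none of the 9 was called in any of the 7 comparisons, and the list median was 0.06 in primary tumors, as over all genes.

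Peptide trimming shortens peptides to a length that class I molecules can hold. Of 9 trimming genes tested (10 listed), none was called in primary tumors by pellet, and LAP3 at 1.62 (adjusted p = 0.0156) and NRDC at 1.62 (adjusted p = 0.0316) were called higher in lymph nodes with estrogen, deposited, where 7.81% of all genes were. THOP1, a cytosolic peptidase, joined them in the averaged site comparison. There 3 of the 9 were called higher, deposited, where 8.15% of all genes were called in either direction, most of them higher. None of the 9 was called after quantile normalization. All 12 genes of the loading and folding list were tested. CANX, a chaperone of new heavy chains, at -2.01 (adjusted p = 0.0315) and SAR1B, a GTPase of vesicle export from the endoplasmic reticulum, at -2.18 (adjusted p = 0.011) were called lower in estrogen primary tumors, deposited, 2 of 12 against 6.94% of all genes. CALR, a chaperone of the loading complex, had 13.03, 13.26 and 12.94 in estrogen lymph nodes against 9.94 and 11.07 in estrogen primary tumors, a difference of 2.57 (adjusted p = 0.00679). It was 1 of 5 of the 12 called higher there, against 7.81% of all genes. After quantile normalization SAR1B alone was called, between the sites, at 1.7 (adjusted p = 0.022) with estrogen and 1.09 (adjusted p = 0.0435) on average. In these site comparisons 0.46% and 0.344% of all genes were called in either direction. Of the other class I and class I-like molecules, 11 of 18 had a probe set, 9 were tested, and none was called in any comparison on either scale.

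Markers of other cells were followed because lymph nodes are rich in leukocytes with class I of their own, which in these mice would be host RNA read by human probe sets. The mean over 29 leukocyte markers lay between 3.11 and 3.5 on all 10 arrays, and that over 11 MHC class II genes between 3.28 and 3.60, where array medians were 2.704 to 2.832. PTPRC, the pan-leukocyte CD45 gene, ran between 2.00 and 2.54, CD3E between 2.31 and 3.05, MS4A1 between 2.08 and 2.74 and HLA-DRA between 2.96 and 3.82. ITGAL (8.64 to 11.02), CORO1A (4.34 to 7.85) and CD79A (3.73 to 6.52) lay above that. Of 25 leukocyte markers tested, LAPTM5 was called, with 3.37 and 3.06 in estrogen primary tumors against 2.30 and 2.25 in withdrawn ones and 2.37, 2.5 and 2.43 in estrogen lymph nodes, deposited. These values lie near the array medians. Of the 25, 1 was called higher in estrogen than in withdrawn primary tumors, against 0.879% of all genes. Between the sites with estrogen 1 was called lower in lymph nodes, against 0.949%. After quantile normalization none of the 25 was called in any comparison. None of 11 class II genes was called. Among 9 stromal and endothelial markers tested, COL3A1 was called lower in lymph nodes, deposited, at -1.72 on average (adjusted p = 0.0207). In that comparison 8.15% of all genes were called in either direction, most of them higher. Of the probe sets tested, 0.424% were called lower there. Between the sites with estrogen 1 of the 9 was called lower in lymph nodes, deposited, against 0.949% of all genes. After quantile normalization none of the 9 was called.

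Luminal tumor cell markers, all 12 of them tested, had means of 9.56 to 10.18 in estrogen lymph nodes, 10.62 to 10.74 in withdrawn lymph nodes, 8.25 and 8.55 in estrogen primary tumors and 10.35 and 10.43 in withdrawn primary tumors, so tumor epithelium was measured on all arrays. In estrogen primary tumors 5 of 12 were called lower, deposited, against 6.94% of all genes, among them EPCAM at -3.53 (adjusted p = 0.0115) and CDH1 at -3.13 (adjusted p = 0.00603). After quantile normalization 1 was called, MUC1 at -1.73 (adjusted p = 0.0428), against 0.582% of all genes called lower. The part of these levels in the class I differences was not tested.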

How the data were processed

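RNA from 10 laser-captured samples of 6 mice was measured on arrays with human probe sets. The authors deposited 1 log2 signal per probe set and array. The submitters' processing notes name Partek and RMA, a method of background correction, normalization and probe summary, with versions not given in the sources used here. Amplifying RNA from few cells by PCR can add noise to every value. With no counts behind the values, precision rests on how many arrays a group has. Gene names came from the annotation of the platform: 44532 probe sets had 1 symbol, 1492 had several and 15273 had none, and 62 control probe sets were left out. A gene took the values of its brightest probe set on average, and 17169 genes whose mean was at or above the 25th percentile of all probe sets (2.311 on the log2 scale) were tested.

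All 10 arrays entered 1 fit by lmFit and eBayes of limma 3.58.1 (R 4.3.3), with 1 mean per group, mouse as a random block and Benjamini-Hochberg adjustment over all genes tested. Quantile normalization was limma's. The 7 comparisons were estrogen against withdrawal at each site and on average, lymph node against primary tumor in each pellet state and on average, and the difference between the responses. The within-mouse correlation was -0.0415 deposited and -0.0566 after quantile normalization. Lymph node and primary tumor of the same mouse, which the labels number alike, had correlated deviations from their group means with r = 0.176, -0.208, -0.21 and 0.0831 in mice 10, 11, 14 and 19, and they are paired by coming from the same animal. Every probe set was also tested in a fit over 45974 probe sets. The fit was tested on simulated data with known changes. The simulated noise was independent between arrays, with no compressed range and no outlying array, so the test does not show how the fit behaves with those.

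The members and lists (other class I molecules, proteasome, trimming, loading, transcription and interferon signalling, interferon-stimulated genes, MHC class II, leukocyte, stromal and luminal markers) were chosen with earlier results of these data known. All 9 members were named in every comparison. Of each list, the 3 genes with the greatest absolute t in each averaged comparison and any called gene could be named; ITGAL, CORO1A, CD79A, PTPRC, CD3E, MS4A1, HLA-DRA and PSMB8 within mice were named for their values or as defining markers. Labels give mice as separate replicates.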

Additional observations from a re-analysis of the deposited data

How the results depend on the processing

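Of 35 alternatives, 21 were planned and 14 were chosen after seeing the data. Over 2043 recomputed gene values, 1606 kept their direction and their side of the threshold, 63 lost the call, 21 gained it, 15 changed sign with a call before or after, and 338 changed sign with neither value called. Without the mouse block (no replicate block) the members called were 2 in primary tumors, 1 between sites with estrogen and 2 in the averaged estrogen comparison, as with it, and 0 elsewhere. With mouse as a fixed replicate block, which uses the pairing of sites, B2M between sites with estrogen was 1.74 (adjusted p = 0.162), and 0 members were called there. No gene was called in any site comparison under that block.

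Quantile normalization, alone or with another change, called 0 members in primary tumors, between sites with estrogen and in the averaged estrogen comparison. The exception was the fit that also left out the estrogen lymph node of mouse 11, with 1 in primary tumors (TAP1), 3 between sites with estrogen and 4 between sites on average. Of all genes, that fit called 1.58% lower between sites with estrogen and 1.17% lower between sites on average. Its share in primary tumors is not given here, so the TAP1 call has no background beside it. Deposited, the fit without that array called 18.5% of all genes lower in primary tumors. B2M between sites with estrogen turned negative in all 13 quantile-normalized fits, at -0.41, -0.19, -0.18, -0.17, -0.12, -0.06 and -0.03 (repeated values given once), and HLA-C and HLA-F, negative after quantile normalization with all arrays, were called with that sign when mouse 11 was also left out (-1.81 and -2.54). The median of the members turned sign after quantile normalization in primary tumors (0.28), between sites with estrogen (-0.65), in the difference between responses (-0.06) and in the averaged estrogen comparison (0.23).

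On the deposited scale, members called between sites with estrogen were 0 with the mean of all probe sets of a gene, 2 with hybridization controls as a covariate and 2 with array quality weights. The covariate also called 2 members in the difference between responses, B2M (2.17, adjusted p = 0.00892) and TAP1 (3.45, adjusted p = 0.00823). Of all genes tested, the covariate fit called 4049 in the difference between responses, against 2 in the main fit. Between sites with estrogen it called 4982 genes, and the fit with quality weights called 1488. The control level and the pellet state cannot be told apart in primary tumors, so the covariate cannot separate them there. Leaving out each array in turn gave 0 to 3 members in primary tumors, 0 to 3 between sites with estrogen, 0 to 2 in the difference between responses, 0 to 3 in the averaged estrogen comparison and 0 to 2 in the averaged site comparison. The share of all genes called moved too, so these ranges alone are not results about the members. With all arrays it was 0.0116% in the difference between responses, 7.04% lower in the averaged estrogen comparison and 8.15% in the averaged site comparison. Without the lymph node of mouse 11 it was 8.4% higher, 9.59% lower and 16.8% higher in the same order. Genes called in primary tumors were 1342 of those tested, 230 after quantile normalization, and 2 (quantile normalization without the withdrawn array of mouse 19) to 5994 (hybridization covariate) over the other settings. Between sites with estrogen they were 1504, 79 after quantile normalization and 0 to 4982 otherwise.

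B2M in primary tumors lay between -2.71 and -0.5 over 32 alternatives and was called in 18, and TAP1 between -3.85 and -1.27, called in 17. Neither changed sign. The 10 arrays, with 2 in each primary tumor group, limit what can be called. Both estrogen primary tumor arrays had the compressed range, so scale and group cannot be told apart there, and quantile normalization forces distributions to be equal whether or not they were. Array signal can be shared between HLA genes through x_at probe sets. For each change given above, the cause was not tested.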
